A study of Mus musculus with 4 samples.

Results

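The transcripts described here are 10 genes that lung epithelium is known for, read in bulk RNA-seq libraries of purified mouse alveolar macrophages (AMs). They were taken by symbol from a table of 54532 genes, and each symbol matched 1 row. Of these, 4 mark club cells of the airway (Scgb1a1, Scgb3a1, Scgb3a2 and Cyp2f2), and the other 6 mark alveolar type 2 (AT2) cells (Sftpc, Sftpb, Sftpa1, Sftpd, Napsa and Slc34a2). The control group held 2 libraries of AMs from lungs of female wild-type mice with no 4T1 inoculation. The tumor group held 2 libraries from female wild-type mice that had carried a primary tumor of 4T1, a mouse mammary carcinoma line, for 2 weeks. The methods give wild-type mice a BALB/c background and a young adult age, and the labels give neither. No transgene or deletion was part of either group. The comparison asked how much RNA of these epithelial genes the macrophage preparations held, and whether it differed between tumor-bearing and control mice.

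Club cells are secretory cells of the conducting airway. They release secretoglobins, small proteins of the airway lining fluid, and carry cytochrome P450 enzymes that process inhaled compounds. AT2 cells make surfactant, the film of lipid and protein that keeps alveoli open, and store it in lamellar bodies. AMs lie on that film and clear used surfactant, so they live in close contact with the cells whose transcripts are counted here. None of the 10 genes is a recognised marker of AMs. The sequencing methods say that AMs were purified but not how. The study's results describe isolated AMs that served for both immunofluorescent staining and RNA-seq. The staining legend gives these cells as CD45+ CD11b- CD11c+ SiglecF+. Epithelial cells lack CD45, the common leukocyte antigen.

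Library totals ranged from 16167147 to 19205737 counts. Values below are CPM, counts scaled to a common library total after TMM scaling, a correction for differences in library composition. At 3 counts, the level under which a gene was not read as detected, a library reached between 0.153 and 0.190 CPM, and this floor covers counting error only. The labels do not say whether the 2 libraries of a group came from separate mice, so p-values measure only the spread between these libraries. The chi-square between paired libraries of a group was 1.81 per gene for the controls and 2.30 for the tumor libraries, above the value near 1 that counting noise alone would give. Across all genes, edgeR's quasi-likelihood test called 53.8% of 14256 tested genes at a Benjamini-Hochberg adjusted p under 0.05, with 29.0% higher and 24.8% lower in the tumor libraries. Markers of other cells moved strongly in the same libraries. The summed level of 14 AM genes was between 19576 and 19703 CPM in the control and between 13569 and 13705 CPM in the tumor libraries. That of 10 neutrophil genes went from between 48.1 and 48.3 CPM to between 3860 and 3893 CPM, and that of 8 hepatocyte genes from between 0.586 and 1.14 CPM to between 651.5 and 658.3 CPM. Their part in the results below was not tested. In bulk RNA, fewer cells of a type and less RNA per cell cannot be told apart.

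All 10 members were detected above 3 counts in at least 1 library, but together they made up a very small part of the RNA. Their summed counts were 2226 and 1990 for the controls against 2032 and 2319 for the tumor-bearing group. As a share of the library this was 0.0116% (95% exact binomial interval 0.0111% to 0.0121%) in control replicate 1 and 0.0123% (0.0118% to 0.0129%) in control replicate 2. It was 0.0120% (0.0115% to 0.0125%) in tumor replicate 1 and 0.0121% (0.0116% to 0.0126%) in tumor replicate 2. The intervals cover counting error only, and the 4 shares overlapped. The nearly level sum was made of members that moved in opposite directions. It takes in transcripts of the 10 genes from any cell, and the cells of origin were not tested. Scgb1a1 and Napsa held most of the counts, and without them the other 8 members summed to 18.0 and 20.9 CPM in the control and to 15.3 and 15.8 CPM in the tumor libraries, an order that turned under the AM gene scaling described below (15.2 and 17.6 against 18.2 and 18.7 CPM).

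Of the 10 members, 9 had enough counts to be tested. In the edgeR test, 1 was higher in the tumor libraries (Napsa), 4 were lower (Scgb1a1, Scgb3a2, Sftpb and Sftpa1), and 4 did not pass the threshold (Scgb3a1, Cyp2f2, Sftpc and Slc34a2). The 5 calls are 55.6% of the tested members, close to the 53.8% of all tested genes, so the number of calls does not set the members apart. The median log2 fold change was -0.78 over the 9 tested members and 0.02 over all genes tested. CPM values of the groups did not overlap for 7 of the 9, against 75.1% of all tested genes. With 2 libraries a group, the smallest p that an exact two-sided permutation test can give is 0.333, so the calls rest on the spread that the model shares across genes. Without control replicate 2, 3 members were called, with 44.5% of all genes tested called in that fit, and without tumor replicate 1, 6 were called, with 50.3% of all genes. With total counts as library sizes 4 members were called, 2 in each direction, and 53.6% of all genes (33.5% higher and 20% lower). A minimum of 10 counts in every library left 6 members, of which 1 was higher and 3 were lower, and 53.1% of all genes were called (27.1% higher and 26.0% lower). The DESeq2 Wald test called 1 member higher and 2 lower, and 41.1% of all genes (22.3% higher and 18.8% lower). A replicate block gave 4 members and 52.2% of all genes.

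These directions hold relative to TMM scaling. Scaling instead on the 14 AM genes, which were all lower under TMM, raised the log2 fold change of genes by a median of 0.49. The members then split into 3 higher and 2 lower in place of 1 higher and 4 lower, and all tested genes into 9952 higher (69.8%) and 722 lower (5.06%), 74.9% in all, in place of 4136 and 3535. Under that scaling the small falls of Abca3 and Cdh1 given below turned to log2 fold changes of 0.30 and 0.34 (edgeR adjusted p of 3.64e-09 and 1.03e-06). Epcam and Akap5, at -0.56 and -0.63 under TMM, fell by little more than the median shift. Their falls are given for TMM only. Scgb1a1, Scgb3a2 and Napsa kept direction and call under both scalings.

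**Figure D1:**
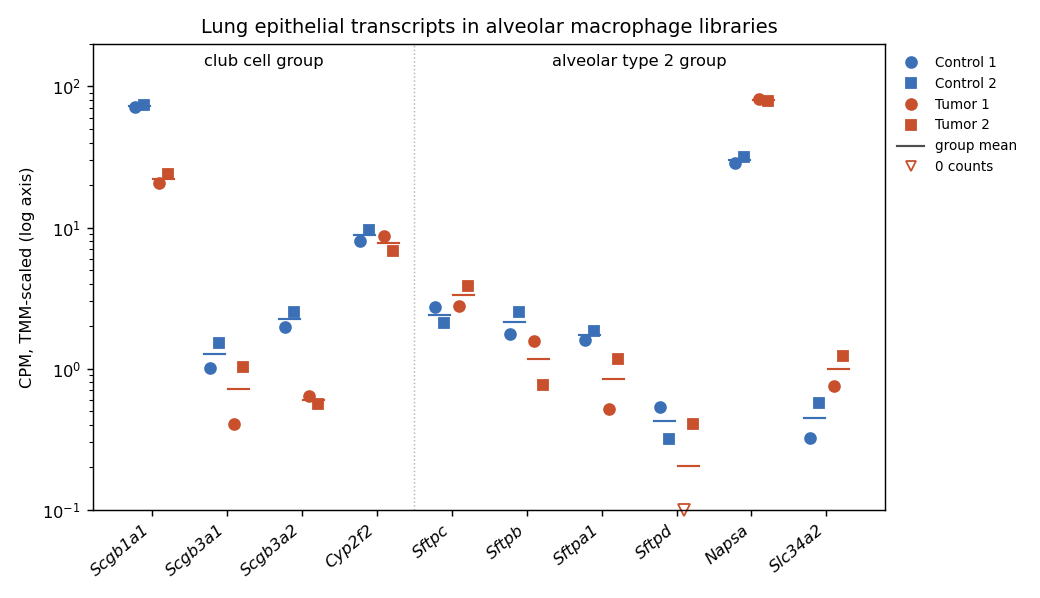
CPM of the 10 members (TMM-scaled, log axis) in each of the 4 libraries, with horizontal lines at the group means (n = 2) and an open triangle at the lower edge for a library with 0 counts. Scgb1a1 sat near 73 CPM in the control and near 22 CPM in the tumor libraries, Napsa changed the opposite way from 30.2 to 79.9 CPM, and the other 8 members stayed under 10 CPM in every library.

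Among the club cell genes, Scgb1a1 was by far the most abundant and fell the most clearly. Scgb1a1 (ENSMUSG00000024653, GRCm38 chromosome 19, 9083636 to 9087958, minus strand) encodes the club cell secretory protein, also called uteroglobin. It had 1351 and 1158 counts in the controls against 356 and 469 in the tumor-bearing group. This corresponded to 72.6 ± 0.917 CPM in controls against 22.2 ± 2.36 CPM in tumor-bearing mice (mean ± SD of 2 libraries). Both tumor libraries lay far below both control libraries, by many times the gap within a group. The level was 3.26-fold lower, a log2 fold change of -1.70 ± 0.0746 (SE), with an edgeR adjusted p of 2.20e-17.

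Scgb3a2 and Scgb3a1 encode lesser-known relatives of uteroglobin that are secreted by airway epithelium. Scgb3a2 (chromosome 18, 43764289 to 43767399, plus strand) had 37 and 40 counts in the controls against 11 in each tumor library. Its level averaged 2.25 ± 0.396 CPM in controls against 0.597 ± 0.0527 CPM in tumor-bearing mice (mean ± SD of 2 libraries). The groups did not overlap, and edgeR gave a log2 change of -1.90 ± 0.395 (SE) at an adjusted p of 0.000178. The ratio of Scgb1a1 to Scgb3a2 counts was 36.5 and 29.0 in the control and 32.4 and 42.6 in the tumor libraries, so these 2 secretoglobins moved by similar factors. Their 95% intervals of the log2 fold change overlapped, from -1.86 to -1.55 for Scgb1a1 and from -2.71 to -1.09 for Scgb3a2.

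Scgb3a1 (chromosome 11, 49663610 to 49665118, plus strand) had 19 and 24 counts in the controls against 7 and 20 in the tumor-bearing group. The groups touched, since control replicate 1 at 1.01 CPM was level with tumor replicate 2 at 1.02 CPM. The log2 fold change was -0.78 with a 95% interval of -1.73 to 0.17, and the edgeR adjusted p was 0.159. Each library moved the value. The log2 fold change was -1.62 without tumor replicate 2 and -0.30 without tumor replicate 1. It was -1.07 without control replicate 1 and -0.50 without control replicate 2.

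Cyp2f2, the main cytochrome P450 of mouse club cells, did not move with Scgb1a1. Cyp2f2 (chromosome 7, 27119909 to 27133660, plus strand) had 151 counts in each control library against 151 and 133 in the tumor-bearing group. Its level averaged 8.80 ± 1.07 CPM in controls against 7.74 ± 1.37 CPM in tumor-bearing mice (mean ± SD of 2 libraries), and the groups overlapped. Its log2 fold change of -0.19 ± 0.161 (SE) had a 95% interval of -0.52 to 0.15 and an edgeR adjusted p of 0.350. Leaving out single libraries moved it between -0.38 without tumor replicate 1 (adjusted p of 0.0695) and -0.01 without tumor replicate 2 (0.959), with -0.32 without control replicate 1 (0.194) and -0.08 without control replicate 2 (0.783). Scaling on the AM genes turned it to 0.31 with an adjusted p of 0.0838. The interval of Cyp2f2 lay wholly above that of Scgb1a1. Within a library, Scgb1a1 had 8.95 and 7.67 times the counts of Cyp2f2 in the control group and 2.36 and 3.53 times in the tumor group. This ratio does not depend on how the libraries are scaled. An antisense gene that overlaps Cyp2f2, Gm15883, had at most 3 counts in any library.

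The make-up of the club cell counts changed accordingly. Scgb1a1 made up 86.7% (95% exact binomial interval 84.9% to 88.4%) and 84.3% (82.3% to 86.2%) of the counts of the 4 genes in the control libraries. In the tumor libraries it made up 67.8% (63.6% to 71.8%) and 74.1% (70.5% to 77.5%). Cyp2f2 took 9.69% and 11.0% of these counts in the controls against 28.8% and 21% in the tumor libraries. The summed level of the 4 genes averaged 84.9 ± 2.74 CPM in controls against 31.2 ± 1.37 CPM in tumor-bearing mice (mean ± SD of 2 libraries), which is 0.368 of the control level. Without Scgb1a1 the sums were 12.3 ± 1.82 and 9.05 ± 0.989 CPM, so that the tumor level was 0.735 of the control level. Scaling on the AM genes moved these ratios to 0.518 for the 4 genes and to 1.04 without Scgb1a1, which turned the direction of the latter.

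**Figure D2:**
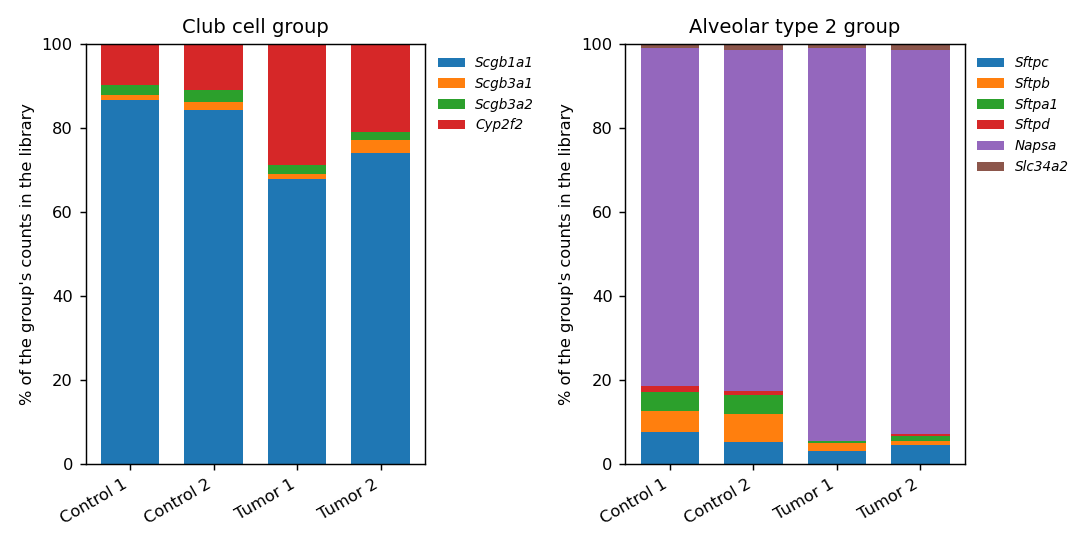
Share of each gene in the counts of its group, in percent, for the 4 libraries, with the club cell genes on the left and the AT2 genes on the right. Cyp2f2 took a larger share of the club cell counts in both tumor libraries (28.8% and 21%) than in the controls (9.69% and 11.0%), and Napsa held between 80.5% and 93.6% of the AT2 counts.

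In the AT2 group, the 4 surfactant protein genes were scarce. Sftpb and Sftpa1 were called lower under TMM, Sftpc was not called and Sftpd was not tested. Sftpc encodes surfactant protein C, a hydrophobic peptide made by AT2 cells and one of the most abundant transcripts of those cells. Sftpc (chromosome 14, 70520949 to 70524081, minus strand) had 51 and 33 counts in the controls against 48 and 76 in the tumor-bearing group. Its level averaged 2.40 ± 0.445 CPM in controls against 3.32 ± 0.778 CPM in tumor-bearing mice (mean ± SD of 2 libraries). The groups did not overlap, but control replicate 1 at 2.72 CPM nearly reached tumor replicate 1 at 2.77 CPM. The log2 fold change of 0.46 ± 0.259 (SE) had a 95% interval of -0.07 to 0.995 and an edgeR adjusted p of 0.138. It passed the threshold with scaling on the AM genes, at 0.96 and an adjusted p of 0.00152, and without tumor replicate 1, at 0.67 and an adjusted p of 0.0353. Leaving out tumor replicate 2 gave 0.19 (adjusted p of 0.651) and leaving out control replicate 2 gave 0.28 (0.524).

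Sftpb encodes surfactant protein B, which is needed to spread the lipid film. Sftpb (chromosome 6, 72304610 to 72314371, plus strand) had 33 and 40 counts in the controls against 27 and 15 in the tumor-bearing group. The mean went from 2.14 ± 0.547 to 1.16 ± 0.561 CPM (mean ± SD of 2 libraries), with no overlap and with an SD near 0.5 CPM in both groups. A log2 fold change of -0.89 ± 0.368 (SE) gave an edgeR adjusted p of 0.0433, close to the threshold.

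Sftpa1 encodes surfactant protein A, a collectin that binds microbes in the alveolus. Sftpa1 (chromosome 14, 41131782 to 41136452, plus strand) had 30 and 29 counts in the controls against 9 and 23 in the tumor-bearing group. Its mean went from 1.72 ± 0.167 to 0.845 ± 0.461 CPM (mean ± SD of 2 libraries). Its log2 fold change, -0.99 ± 0.408 (SE), passed at an edgeR adjusted p of 0.0428. The calls of Sftpb and Sftpa1 were both lost with total counts as library sizes (adjusted p of 0.0616 and 0.0592), under AM gene scaling (0.328 and 0.272), with the DESeq2 Wald test (0.194 and 0.187), and without control replicate 2 (0.340 and 0.201). The log2 fold changes of Sftpb and Sftpa1 were then -0.83 and -0.92 with total counts, -0.40 and -0.50 under AM gene scaling, -0.89 and -1.01 with the Wald test, and -0.63 and -0.91 without control replicate 2. Which tumor library was left out moved both genes, in opposite ways. Sftpb was at -1.47 without tumor replicate 1 and at -0.45 without tumor replicate 2, where it lost its call (adjusted p of 0.343). Sftpa1 was at -1.71 without tumor replicate 2 and at -0.55 without tumor replicate 1, where it lost its call (0.297), as it did without control replicate 1 (-1.10 and 0.119).

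Sftpd, which encodes a second collectin of surfactant, lies on chromosome 14 from 41172214 to 41185149, on the minus strand. Counts were 10 and 5 in the controls against 0 and 8 in the tumor-bearing group, too few to pass the filter. With no filter, edgeR gave a log2 fold change of -1.01 with a 95% interval of -2.68 to 0.66 and an adjusted p of 0.454. A count of 0 in tumor replicate 1 allows a level of up to 0.173 CPM. A difference between groups was not detectable at this depth.

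The 250 bases upstream of the start sites of Sftpb and Sftpa1 are shown because these were the surfactant genes called lower and had an entry in the RefSeq promoter table (build GRCm38.p6). The windows are chr6:72304360-72304609 for Sftpb and chr14:41131538-41131787 for Sftpa1, both on the plus strand and written 5′ to 3′. Capitals mark a match to any motif searched.
Sftpb: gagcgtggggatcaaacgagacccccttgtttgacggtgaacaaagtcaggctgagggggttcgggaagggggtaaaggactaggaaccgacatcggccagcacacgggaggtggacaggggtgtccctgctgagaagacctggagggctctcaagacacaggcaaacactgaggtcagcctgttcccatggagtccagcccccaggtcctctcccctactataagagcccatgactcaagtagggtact
Sftpa1: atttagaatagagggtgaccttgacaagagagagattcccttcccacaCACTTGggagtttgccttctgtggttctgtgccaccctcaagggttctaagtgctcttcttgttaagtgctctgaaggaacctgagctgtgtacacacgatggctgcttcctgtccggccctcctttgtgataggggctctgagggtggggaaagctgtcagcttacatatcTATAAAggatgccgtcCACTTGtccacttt

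The motifs searched were CAAGTG for NKX2-1, a lung epithelial transcription factor, TGTTTAC and TATTTAC for FOXA factors, TTGCNNAA for C/EBP factors, GAGGAAGT for the myeloid factor PU.1, each on both strands, and the TATA box TATAAA on the gene's strand. No motif matches overlapped in these windows. The Sftpa1 window held the NKX2-1 letters at positions -202 and -14 from the start site and a TATA box at -30, and the Sftpb window held none of the motifs. Over 32851 promoter windows of the same length, 11.6% held the NKX2-1 letters and 7.59% the TATA box. Of the other members with an entry, Scgb3a1 had the NKX2-1 letters at -174 and the PU.1 letters at -89, Cyp2f2 had the NKX2-1 letters at -191, and Slc34a2 had the C/EBP letters at -48. Positions count from RefSeq start sites, which can differ from the gene starts given here. The Slc34a2 window, 53049103 to 53049352, lies inside its gene span. The C/EBP letters were in 9.56%, the PU.1 letters in 2.44% and the FOXA letters in 3.17% and 2.73% of all windows. A match in letters is a description and does not show binding. Scgb1a1, Scgb3a2, Sftpc, Sftpd and Napsa had no entry.

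Napsa, the aspartic protease that trims surfactant protein precursors in AT2 cells and that is also known from kidney and spleen, was the member that rose. Napsa (chromosome 7, 44572380 to 44586862, plus strand) had 538 and 501 counts in the controls against 1410 and 1540 in the tumor-bearing group. Its level averaged 30.2 ± 2.15 CPM in controls against 79.9 ± 2.07 CPM in tumor-bearing mice (mean ± SD of 2 libraries), and the groups lay far apart. The log2 fold change of 1.41 ± 0.0665 (SE), a 2.65-fold higher level, had an edgeR adjusted p of 1.31e-16. Napsa counts were 10.5 and 15.2 times those of Sftpc in the control and 29.4 and 20.3 times in the tumor libraries. Napsa held 80.5% and 81.2% of the counts of the 6 AT2 genes in the control and 93.6% and 91.3% in the tumor libraries.

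Because of Napsa, the summed level of the 6 AT2 genes averaged 37.3 ± 2.44 CPM in controls against 86.4 ± 0.776 CPM in tumor-bearing mice (mean ± SD of 2 libraries), 2.31 times the control level. Without Napsa the sums were 7.13 ± 0.293 and 6.51 ± 1.30 CPM, and the libraries overlapped, at 6.93 and 7.34 against 5.59 and 7.43 CPM. Scaling on the AM genes moved the ratio of the 6 genes to 3.26, and that without Napsa turned from 0.913 to 1.29. Markers of leukocytes that rose beside Napsa were read from lists of other cells. Of 6 dendritic cell genes, 3 were higher and 1 lower in the tumor libraries, and the summed level went from between 11.7 and 11.8 CPM to between 35.8 and 37.3 CPM. Of 4 monocyte genes, 3 were higher and 1 lower, and the sum went from between 10.4 and 10.8 CPM to between 49.4 and 50.8 CPM. Of 5 B cell genes, 4 were higher, and the sum went from between 6.20 and 6.29 CPM to between 12.2 and 13.2 CPM. No gene of these 3 lists was at 0 in any library. The granulocyte lists rose by far more, the neutrophil list as given above and the 5 eosinophil genes from sums of 0.480 and 0.506 CPM to 2221 and 2201 CPM. The T cell, fibroblast and endothelial sums given at the end rose too. Over all genes tested, edgeR called 29.0% higher and 24.8% lower. The part of these lists in the rise of Napsa was not tested.

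Slc34a2 encodes the sodium-phosphate cotransporter of the apical membrane of AT2 cells. Slc34a2 (chromosome 5, 53038081 to 53071664, plus strand) had 6 and 9 counts in the controls against 13 and 24 in the tumor-bearing group. Its level averaged 0.445 ± 0.177 CPM in controls against 0.986 ± 0.334 CPM in tumor-bearing mice (mean ± SD of 2 libraries), and the groups did not overlap. Its log2 fold change, 1.18 ± 0.525 (SE), missed the threshold at an edgeR adjusted p of 0.0607. It passed with total counts as library sizes (0.0478), with scaling on the AM genes (0.00518) and without tumor replicate 1 (0.0459). The adjusted p was 0.265 with the DESeq2 Wald test, and the log2 fold change was 0.78 without control replicate 1 (0.455) and 0.77 without tumor replicate 2 (0.430).

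**Figure D3:**
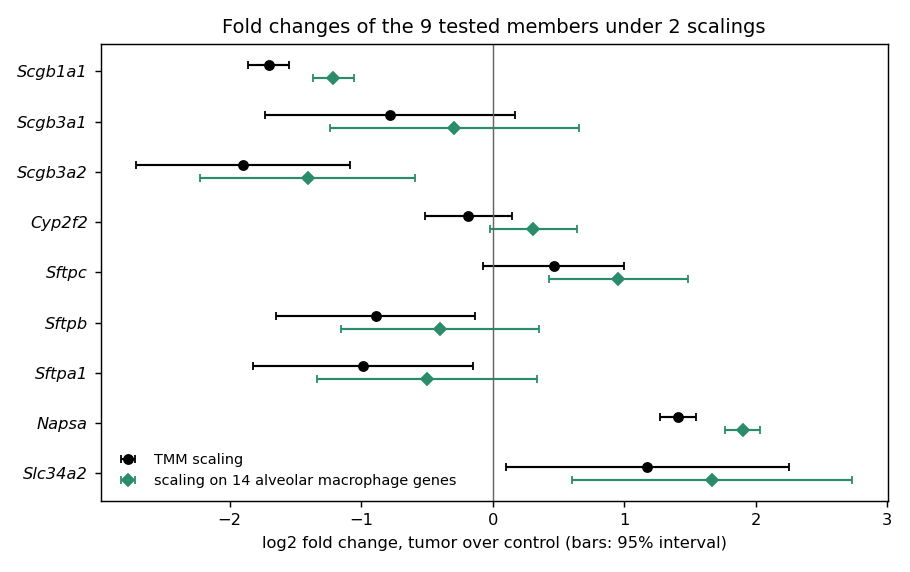
Log2 fold changes of the 9 tested members, tumor over control, with 95% intervals from the edgeR fit, under TMM scaling (circles) and under scaling on 14 AM genes (diamonds). Scgb1a1 and Scgb3a2 lay below 0 and Napsa above 0 under both scalings, while Cyp2f2 changed side, from -0.19 to 0.31.

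Levels of different genes were set in order only after division by gene length, as CPM per kilobase of the gene length given with the counts. In the control libraries Scgb1a1 led at 152.6 ± 1.93 CPM per kilobase, followed by Napsa at 11.3 ± 0.808 and Cyp2f2 at 4.35 ± 0.527 (SD, n = 2). Next came Scgb3a2 at 2.56 ± 0.450, Sftpc at 2.32 ± 0.430 and Scgb3a1 at 2.12 ± 0.599, whose libraries overlapped. Sftpb, Sftpa1, Sftpd and Slc34a2 were lower, in that order, from 1.09 to 0.0887 CPM per kilobase. In the tumor libraries Scgb1a1 at 46.6 ± 4.96 and Napsa at 30.02 ± 0.780 CPM per kilobase drew close. Cyp2f2 and Sftpc overlapped there at 3.82 ± 0.677 and 3.21 ± 0.752, and Scgb3a1, Scgb3a2, Sftpb, Sftpa1, Slc34a2 and Sftpd followed, each overlapping with its neighbour. With the longest annotated transcript as the length, which is 1560 bases for Napsa in place of 2660, Napsa stood above Scgb1a1 in the tumor libraries, at 51.2 against 46.6 CPM per kilobase.

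Other genes listed for lung epithelium, whose cells of origin in these preparations were not tested, were read from 6 lists of 55 genes. Of these genes 23 had enough counts to be tested. In the edgeR test, 5 were higher, 6 were lower and 12 did not pass the threshold, with a median log2 fold change of -0.16. These 11 calls are 47.8% of the tested genes, near the 53.8% over all genes (29.0% higher and 24.8% lower). Of the higher genes, Clic5, Cldn18, Igfbp2 and Krt8 had under 10 counts in each control library. They passed the filter only through the tumor libraries, so the number higher was in part fixed by the filter. Airway secretory genes other than the members were scarce. Of 9 genes 3 were tested, and none passed at an adjusted p under 0.05. The mucus and airway lining genes Muc5b and Bpifa1 had log2 fold changes of -1.07 and -0.79 with edgeR adjusted p of 0.0842 and 0.0878. Aldh1a7 had 0.73 with an adjusted p of 0.232.

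Of 10 other AT2 genes 5 were tested and 1 was lower. Abca3, which encodes the lipid transporter of lamellar bodies, averaged 212.9 ± 0.999 CPM in controls against 186.0 ± 2.71 CPM in tumor-bearing mice (mean ± SD of 2 libraries), a log2 fold change of -0.19 ± 0.0335 (SE) with an edgeR adjusted p of 1.55e-05. Per kilobase, Abca3 stood at 24.2 CPM and Sftpc at 2.32 CPM in the control libraries. Lpcat1, an enzyme of surfactant lipid synthesis, stood at 2.89 CPM per kilobase, and its log2 fold change was 0.09 with an adjusted p of 0.546. Etv5 and Muc1 had log2 fold changes of -0.39 and -0.57 with adjusted p of 0.119 and 0.186. Cxcl15, the remaining tested gene and named after its value was seen, had -1.09 with an edgeR adjusted p of 0.0520. Sfta2, a small secreted protein of AT2 cells, had a single read, 1 count, in control replicate 2, and Nkx2-1 had 2 counts in each control library against 0 and 11 in the tumor-bearing group.

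Alveolar type 1 (AT1) cells form the thin gas exchange surface. Of 10 AT1 genes 8 were tested, 3 were higher and 2 were lower. Pdpn, the surface protein podoplanin, fell from 16.6 ± 0.683 to 4.85 ± 0.337 CPM (mean ± SD of 2 libraries), by 1.77 ± 0.144 (SE) on the log2 scale, with an edgeR adjusted p of 2.31e-11. Akap5 fell by 0.63 with an adjusted p of 0.00289. Hopx and Ager, which encodes the receptor RAGE, did not pass, with log2 fold changes of 0.09 and 0.39 and adjusted p of 0.738 and 0.168. Clic5, Cldn18 and Igfbp2 were the higher genes and were named after their values were seen. They had under 10 counts in each control library, so only their tumor counts let them be tested. Clic5 and Cldn18 had log2 fold changes of 1.26 and 1.56. Igfbp2 had 1 and 0 counts in the controls against 46 and 67 in the tumor-bearing group, at least 14-fold higher.

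Ciliated cells move mucus along the airway. Dynlrb2, Sntn and Tmem212 had 0 counts in all 4 libraries, and Foxj1, the regulator of motile cilia, had 7 and 12 counts in the controls against 4 and 2 in the tumor-bearing group. Tppp3, a tubulin-binding protein, held nearly all of the summed level of the 10 ciliated genes, with 67.8 ± 0.742 of 69.7 CPM in controls and 64.1 ± 4.09 of 66.0 CPM in tumor-bearing mice (mean ± SD of 2 libraries). The tested genes Tppp3 and Ccdc39 had log2 fold changes of -0.08 and 0.82 with edgeR adjusted p of 0.268 and 0.149. The 5 basal cell genes reached no more than 5 counts in a library and were not tested.

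Genes shared by many epithelia split. Of 11 genes 5 were tested, 2 were higher and 3 were lower. Krt19, Cdh1 and Epcam were at 306.1, 81.9 and 53.4 CPM in the control libraries, and the log2 fold changes were -0.74, -0.16 and -0.56. Cdh1 lost its call with total counts as library sizes, at -0.09 and an adjusted p of 0.139. Krt18 rose from 0.450 to 6.01 CPM, a log2 fold change of 3.77, and Krt8, its keratin partner and named after its value was seen, rose by 1.79 on the log2 scale. Per kilobase, Krt19 at 165.0 and Epcam at 26.2 CPM in the control libraries stood above every AT2 member, while Cldn4, Elf3 and Esrp1 had at most 3 counts in any library.

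**Figure D4:**
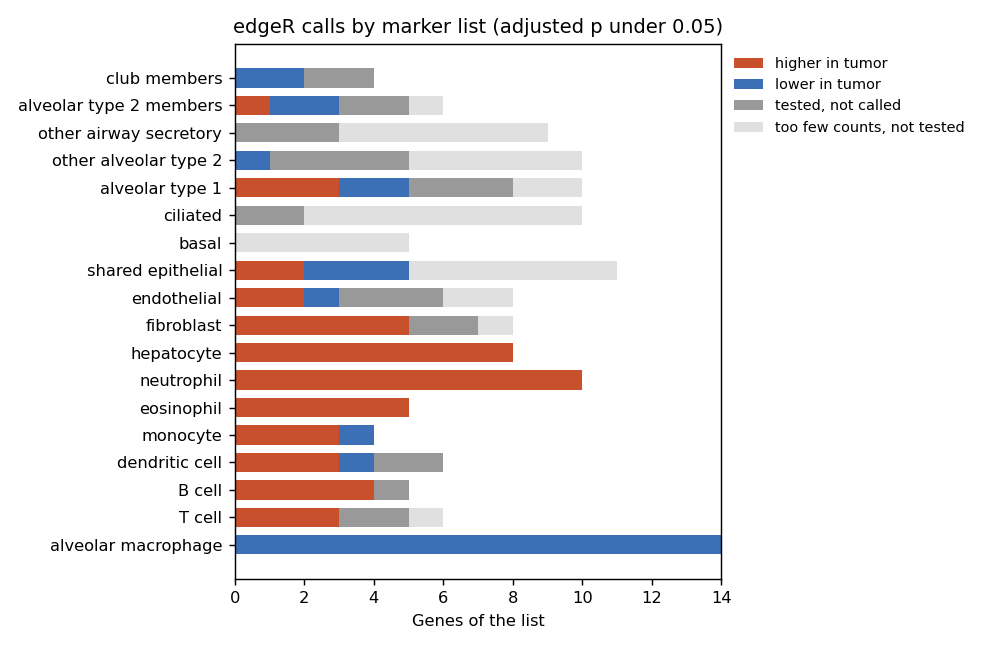
Number of genes in each marker list that were higher in tumor, lower in tumor, tested and not called, or not tested for lack of counts (edgeR, adjusted p under 0.05). The epithelial lists at the top hold a mix of directions and many genes with too few counts. Every gene of the hepatocyte (8 of 8), neutrophil (10 of 10) and eosinophil (5 of 5) lists was tested and higher. Of these, 7 hepatocyte, 3 neutrophil and 3 eosinophil genes had at most 3 counts in each control library. Only their tumor counts let them be tested, so their direction was fixed by the filter.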

How the data were processed

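Libraries were made from total RNA with a NEBNext Ultra RNA kit and sequenced on an Illumina HiSeq instrument. Per the labels and methods, the authors aligned paired-end reads with HISAT2 2.0.5, counted reads per gene with featureCounts and deposited whole-number counts without normalization. The gene length column of the deposited table was used for levels per kilobase. Genome build, strandedness and multi-mapping rules are not given in the sources used here. Of 54532 gene identifiers, 54495 matched GENCODE M21 and 98.3% of these had the same GRCm38 coordinates, as did all 10 members.

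Groups were taken from the sample titles. Counts were fitted over the whole table in R 4.3.3 with edgeR 4.0.16 (filterByExpr at a minimum count of 10, TMM, glmQLFit and glmQLFTest, group as the only term, 2 residual degrees of freedom), and p-values were adjusted by Benjamini-Hochberg over the 14256 genes tested. Standard errors are log2 fold changes over the square root of F, and intervals are 95%, for each gene alone. The fit was tested on simulated counts. Alternatives were DESeq2 size factors, total counts, scaling on 14 AM genes, 2 other filters, DESeq2 1.42.0, limma-voom (limma 3.58.1), a replicate block and leaving out each library. The members, lists and alternatives were chosen with earlier results of these data known. All members were named, and at most 4 tested genes of highest mean CPM in each other epithelial list, besides those stated.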

Additional observations from a re-analysis of the deposited data

How the results depend on the processing

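Scgb1a1, Scgb3a2 and Napsa kept their direction and their call in all 12 alternatives, with log2 fold changes from -1.83 to -1.21, from -2.08 to -1.41 and from 1.32 to 1.90. The number of members called was 5, 4 with total counts as library sizes and with a minimum of 10 counts in every library, and 3 with the DESeq2 Wald test, while 53.8%, 53.6%, 53.1% and 41.1% of all genes tested were called in these fits. The number called higher was 1, and 2 with total counts and 3 with scaling on the AM genes. The number called lower was 4, 3 with a minimum of 10 counts in every library, and 2 with total counts, with scaling on the AM genes and with the DESeq2 Wald test. Leaving out a library gave from 3 to 6 members called, from 1 to 3 higher and from 2 to 4 lower, with the fewest calls without control replicate 2 and the most without tumor replicate 1, under the assumption that the lone library varies like the other group. Over all genes, from 43.5% to 50.3% were then called, from 23.4% to 26.7% higher and from 20.1% to 23.7% lower. Of the 93 comparison list genes tested, 71 were called, beside 53.8% of all genes. With a minimum of 10 counts in every library, a filter that leaves fewer genes to test, 37 were called, beside 53.1% of all genes. Cyp2f2 turned from -0.19 to 0.31 on the log2 scale with scaling on the AM genes. The log2 ratio of Napsa to Scgb1a1 in the tumor libraries turned from -0.64 to 0.13 with the longest annotated transcript as the length. Where no fewer genes or samples explain a change, the cause was not tested.

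For libraries with the same replicate number, deviations from the group means correlated at -0.00278 across genes, so no shift shared by number was seen. This 1 value cannot show whether such libraries shared a day or a preparation, which the labels do not give. A replicate block gave 4 members called, beside 52.2% of all genes, with Sftpb losing its call at an adjusted p of 0.0647, and 70 comparison list genes. Depth limits the 7 members under 5 CPM. Sftpd did not pass the main filter, and its log2 fold change without one, -1.01, had an adjusted p of 0.454. The 95% intervals of the other 6 are each over 1 log2 unit wide.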

Other observations

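Of 8 fibroblast genes 7 were tested and 5 were higher in the tumor libraries, beside 29.0% of all genes tested. The summed level of the list averaged 4.96 ± 0.151 CPM in controls against 13 ± 0.346 CPM in tumor-bearing mice (mean ± SD of 2 libraries). Col1a1, Col1a2, Col3a1 and Dcn had under 10 counts in each control library, so only their tumor counts let them be tested. The same held for Cldn5 of the endothelial list and for Cd3g and Trac of the T cell list. Of 8 endothelial genes 6 were tested, Cldn5 and Pecam1 were higher, and Calcrl was lower, with a log2 fold change of -0.91 and an edgeR adjusted p of 7.79e-06. The 8 genes had sums of 22.0 ± 1.91 and 33.0 ± 4.75 CPM. Of these sums, Pecam1 held 2.13 and 18.8 CPM. Of 6 T cell genes 5 were tested and 3 were higher, with sums of 4.19 ± 0.427 and 13.9 ± 0.837 CPM.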
